A study of Mus musculus with 5 samples.

Results

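The 9 genes described encode proteins that bind mRNA and bear on its stability: PABPC1, PABPC4, SERBP1, PUM2, ELAVL1, TIA1, ZFP36, ZFP36L1 and ZFP36L2. They were chosen by symbol because the series concerns mRNA stability, and all 9 were found, each on 1 row, among the 50867 genes of the deposited table. The RNA is described as coming from lentivirus-infected Ba/F3, a mouse pro-B line that depends on interleukin-3. The labels name 5 groups of 1 library each, and all values for 5 libraries below follow this order: PMSCV (the name of a vector), S_PXT1, S_PXT1_K118R, WT, WT_K118R. What S and WT stand for is not spelled out, and K118R is the notation for a lysine to arginine change. All 5 groups are described as infected cells of 1 line, so none shows uninfected cells. With 1 library a group there was no replicate spread, no test between conditions was possible, and every interval given is an exact 95% interval for counting error only.

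The table counts reads of libraries labelled as these mouse cells on human gene models, and its totals ran from 250409 to 351693 counts a library. A gene's level therefore also depends on how well any mouse reads match the human model, and levels were compared between libraries but not between genes. Levels are in CPM, counts divided by a library size that was scaled to make the libraries comparable. S_PXT1 and S_PXT1_K118R stood apart from the other 3 libraries, with 7393 and 7044 genes detected against 11492 to 11712, and with 0.658% and 0.571% of counts on the mitochondrial chromosome against 1.25% to 1.30%. PXT1, a gene named in 2 of the labels, was at 0 throughout (a limit of 3 counts a library), so the data gave no check of the construct labels. Of the pro-B and blood markers, CD79A, CD79B, VPREB1, IGLL1 and IL3RA were at 0 in all 5 libraries, and the 16 matched markers summed to 160 to 369 counts. Markers of other cell types were present as well. Summed counts were 363, 0, 0, 1063 and 596 over 12 squamous epithelium markers, 670, 4, 3, 468 and 37 over 8 plasma cell markers, and 177, 1, 0, 179 and 176 over 7 prostate markers. The 10 smooth muscle and fibroblast markers gave 508, 188, 195, 742 and 598. The origin of these marker counts was not tested, so it is not settled that all reads came from the labelled cells.

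The life of an mRNA is largely set at its 3′ end. Cytoplasmic poly(A)-binding proteins such as PABPC1 coat the poly(A) tail, contact the translation initiation complex and regulate access of the deadenylases that shorten the tail. Proteins bound to the 3′ untranslated region add to or oppose this: ELAVL1 (HuR) stabilises mRNAs with U-rich or AU-rich elements, whereas the zinc-finger proteins ZFP36 (tristetraprolin), ZFP36L1 and ZFP36L2 bind AU-rich elements and recruit the CCR4-NOT deadenylase. TIA1 binds U-rich sequence and gathers mRNAs into stress granules, PUM2 binds the Pumilio element and represses its targets, and SERBP1 binds mRNA and also occupies the mRNA channel of idle ribosomes. ZFP36L1 and ZFP36L2 are known for holding early B-cell precursors in check.

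Several of these proteins bind elements in mRNAs of the same group, and 1 stretch of the mouse 3′ untranslated region is shown for each of 6 genes for that reason. Sequences and positions are from GENCODE release M21 on mouse build GRCm38, on the sense strand, for the transcript with the longest coding sequence of each gene. Capitals mark the AU-rich nonamer TTATTTATT or the Pumilio element TGTANATA, where N is any base.
Zfp36 (chr7:28376951-28376979, minus strand): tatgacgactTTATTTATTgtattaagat
Zfp36l1 (chr12:80108167-80108195, minus strand): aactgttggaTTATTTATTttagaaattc
Zfp36l2 (chr17:84184914-84184942, minus strand): actatttaacTTATTTATTatcttgtgaa
Elavl1 (chr8:4285788-4285816, minus strand): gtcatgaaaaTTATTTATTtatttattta
Pum2 (chr12:8750155-8750182, plus strand): tttatagagaTGTATATAgaattatagt
Serbp1 (chr6:67286780-67286807, plus strand): gaagttactaTGTAAATAttaaacgaaa

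Each of the 3 Zfp36-family transcripts held the nonamer 1 time, and the Elavl1 transcript held it 8 times, with copies that overlap. Among mouse 3′ untranslated regions within 10% of the same length, the nonamer was present in 4.71% for Zfp36, 9.46% for Zfp36l1, 9.59% for Zfp36l2 and 19.8% for Elavl1. These letters were not found in the 3′ untranslated regions of Pabpc1, Pabpc4, Serbp1, Pum2 and Tia1. The Pumilio element occurred 2 times in Pum2, where 43.8% of regions of like length hold it, and 2 times in Serbp1, where 75.0% of the 12 regions of like length hold it. A match describes the letters only and is not evidence of binding.

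SERBP1 (chromosome 1, 67407810 to 67430415 on the human build of the table, which the sources used here do not name) had the widest range of the 8 members that averaged at least 20 counts. It had 2271, 248, 42, 2866 and 3131 counts, or 8076, 967, 165, 8382 and 9279 CPM. The 2 libraries with the S_PXT1 construct were low and did not overlap the other 3. In bulk RNA, fewer cells that express a gene and less of its RNA per cell cannot be told apart. SERBP1 was 8.35-fold lower in S_PXT1 than in PMSCV (7.32 to 9.56) and 8.67-fold lower than in WT (7.61 to 9.91). In S_PXT1_K118R it was 56.2-fold lower than in WT_K118R (41.5 to 78.1), a comparison that shares no library with that of S_PXT1 and WT. S_PXT1_K118R was in turn 5.86-fold lower than S_PXT1 (4.21 to 8.33). Between the other 3 libraries the differences were small: WT was at 1.04 times PMSCV, with an interval that includes 1 (0.982 to 1.097; 0.958 when scaled by total counts), and WT_K118R at 1.11 times WT (1.05 to 1.17). Both S_PXT1 libraries lay below the other 3 for 1 of 8 members, SERBP1, as for 12.6% of the 1547 genes that averaged 20 counts or more, and at least 4-fold below them for SERBP1 and 1.94% of those genes. Where the average was 100 counts or more, SERBP1 was the 1 such gene of 505 (0.198%). The tissue markers and mitochondrial counts given above fall into the same 2 and 3 libraries, and their part in the SERBP1 difference was not tested.

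**Figure D1:**
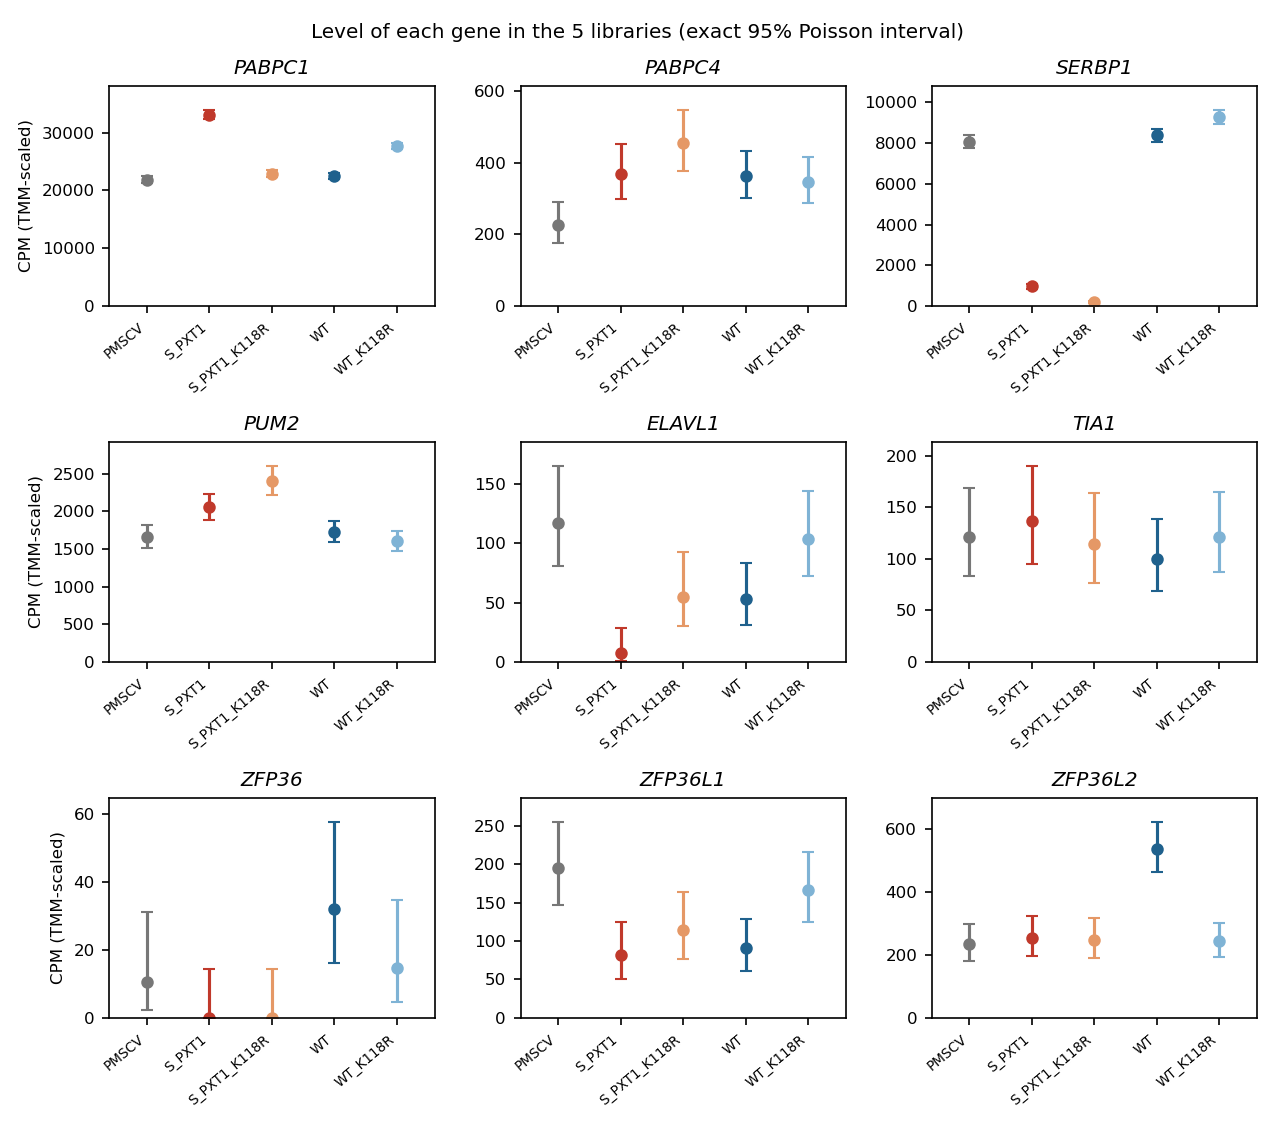
Level of each of the 9 genes in the 5 libraries, 1 panel a gene, in TMM-scaled CPM on a linear axis from 0, with points for single libraries and bars for the exact 95% Poisson interval. SERBP1 is at 967 and 165 CPM in S_PXT1 and S_PXT1_K118R against 8076 to 9279 CPM elsewhere, and ZFP36L2 stands out in WT at 538 CPM.

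Reads on a human pseudogene of SERBP1 did not follow the gene. SERBP1P5 (chromosome 4, 78180866 to 78182046 on the same build) had 343, 403, 344, 452 and 428 counts. Its level was 1.29-fold higher in S_PXT1 than in PMSCV (1.11 to 1.49) and was at 1.07 times WT_K118R in S_PXT1_K118R, with an interval that includes 1 (0.922 to 1.23). For each read on SERBP1P5 there were 6.62, 0.615, 0.122, 6.34 and 7.32 reads on SERBP1. The gene and its copies share sequence, and no source used here says how the counting divided reads between them, so the fold of SERBP1 itself is uncertain. With the counts of the 6 SERBP1 pseudogenes in the table added to it, SERBP1 was at 0.275 times PMSCV and 0.265 times WT in S_PXT1, and at 0.146 times WT_K118R in S_PXT1_K118R. S_PXT1_K118R was then at 0.602 times S_PXT1, within 2-fold. The S_PXT1 ratios are then less than 4-fold below PMSCV and WT, so SERBP1 no longer counts among the genes at least 4-fold lower in both S_PXT1 libraries.

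**Figure D2:**
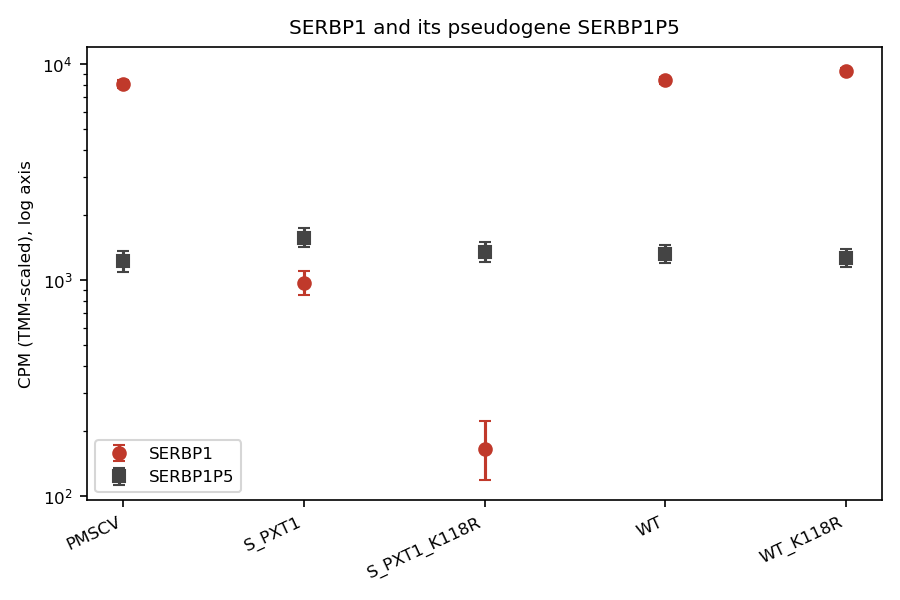
SERBP1 (circles) and its pseudogene SERBP1P5 (squares) in each library, in TMM-scaled CPM on a log axis, with exact 95% Poisson intervals. The pseudogene stays between 1220 and 1571 CPM in all 5 libraries, while the gene lies below it in S_PXT1 and S_PXT1_K118R only.

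The same contrast was computed for every gene that averaged at least 20 counts and whose pseudogenes, matched by symbol, together averaged at least 20, which gave 42 pairs. The difference between the log2 ratio of the gene and that of its pseudogenes was -3.40 for SERBP1 in S_PXT1 over PMSCV, against a median of -0.23 over the pairs, and -5.88 in S_PXT1_K118R over WT_K118R, against a median of -0.06. SERBP1 had the lowest value of the 42 pairs in these comparisons, and also in S_PXT1 over WT (-3.37) and S_PXT1_K118R over S_PXT1 (-2.33). In WT over PMSCV and WT_K118R over WT its values were -0.03 and 0.19, in the middle of the pairs. In S_PXT1 over PMSCV 8 of the 42 pairs were at least 2-fold apart, all with negative differences, among them EIF4B (-1.89) and HMGB1 (-1.75). In S_PXT1 over WT, S_PXT1_K118R over S_PXT1 and S_PXT1_K118R over WT_K118R 5, 2 and 4 pairs were. A gap between gene and pseudogenes was therefore not particular to SERBP1, though its gap was the lowest value. For PABPC1, whose pseudogenes summed to 48 to 75 counts, the difference was 0.41 in S_PXT1 over PMSCV and -0.73 in S_PXT1_K118R over S_PXT1.

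**Figure D3:**
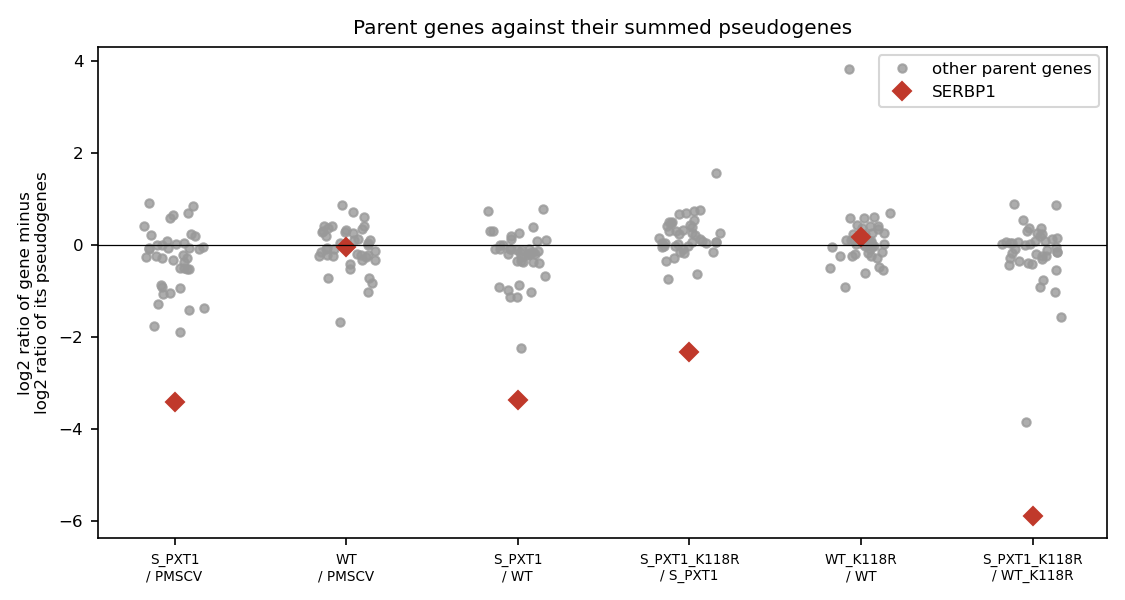
Difference between the log2 ratio of a gene and the log2 ratio of its summed pseudogenes, for 42 pairs in each of 6 comparisons; points are pairs, spread sideways for display, and the diamond is SERBP1. SERBP1 is the lowest pair in the 4 comparisons that have an S_PXT1 construct in the numerator and lies among the others in the remaining 2.

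PABPC1 (chromosome 8, 100685816 to 100722809), the main cytoplasmic poly(A)-binding protein, had 6150, 8495, 5818, 7673 and 9339 counts. On the scaled level S_PXT1 was highest at 33118 CPM, followed by WT_K118R at 27678 CPM, while S_PXT1_K118R, WT and PMSCV were close together at 22872, 22439.6 and 21870.2 CPM. The 3 lower libraries did not differ as neighbours beyond counting error, with ratios of 1.02 (0.985 to 1.06) and 1.03 (0.992 to 1.06), the latter 0.947 when scaled by total counts. S_PXT1 was 1.51-fold above PMSCV (1.47 to 1.57) and 1.48-fold above WT (1.43 to 1.52). The K118R libraries lay on opposite sides of their counterparts: S_PXT1_K118R was at 0.691 times S_PXT1 (0.668 to 0.714) and WT_K118R at 1.23 times WT (1.20 to 1.27). No PABPC1 ratio among the 6 comparisons reached 2-fold. Its intervals are narrow because its counts are high, and they hold no spread between cultures.

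PABPC4 (chromosome 1, 39560816 to 39576790), another cytoplasmic poly(A)-binding protein, had 64, 95, 116, 124 and 117 counts. PMSCV was the low library, and the other 4 did not differ from their neighbours in order beyond counting error. S_PXT1_K118R and WT_K118R, which were not neighbours, did, at a ratio of 1.32 (1.01 to 1.71). S_PXT1 and WT were 1.63-fold (1.17 to 2.27) and 1.59-fold (1.17 to 2.19) above PMSCV, and these 2 comparisons share the PMSCV library. PABPN1, the nuclear poly(A)-binding protein, divided the libraries in another way, with 156 and 148 counts in WT and WT_K118R and 81, 83 and 81 in PMSCV, S_PXT1 and S_PXT1_K118R. WT was 1.58-fold above PMSCV for PABPN1 (1.20 to 2.10).

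ELAVL1, the stabiliser of AU-rich mRNAs, was sparse. It had 33, 2, 14, 18 and 35 counts. S_PXT1 was the low library, with a ratio to PMSCV of 0.07 (0.0077 to 0.260) and a ratio to WT of 0.15 (0.017 to 0.619), both from 2 counts. WT was 2.23-fold below PMSCV (1.22 to 4.21), and PMSCV and WT_K118R, at 117 and 104 CPM, did not differ beyond counting error. S_PXT1_K118R was at 7.06 times S_PXT1 (1.62 to 64.0). The ELAVL1 model of the table spans chromosome 19 from 7958579 to 8445041 and overlaps other genes, among them HNRNPM on the opposite strand with 1471 to 2046 counts. The strand setting of the counting is not known, so reads of overlapping genes on the 2 strands may not have been told apart. With the counts of overlapping models on its own strand added, ELAVL1 in S_PXT1 was at 0.134 times PMSCV and 0.351 times WT, and S_PXT1_K118R was at 3.03 times S_PXT1. The squamous and plasma cell marker sums above are low in S_PXT1 as well, and their part in the ELAVL1 difference was not tested. ELAVL2, ELAVL3 and ELAVL4, neuronal relatives of ELAVL1, had 0 to 3 counts in any library.

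TIA1 (chromosome 2, 70209444 to 70248660), which nucleates stress granules, was the most even of the 9 genes. It had 34, 35, 29, 34 and 41 counts. Its highest and lowest levels were 1.37-fold apart, no neighbours in the order of levels differed beyond counting error, and the intervals of its 6 ratios reached from 0.493 to 2.27. These intervals do not exclude TIA1 differences of that size. TIAL1, its paralog, was counted more deeply, at 278, 288 and 258 counts in PMSCV, S_PXT1 and S_PXT1_K118R and 449 and 382 in WT and WT_K118R. WT was 1.33-fold above PMSCV for TIAL1 (1.14 to 1.55).

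PUM2 (chromosome 2, 20248691 to 20352234), a Pumilio repressor, had 467, 526, 610, 590 and 541 counts. The 2 S_PXT1 libraries were highest, at 2051 and 2398 CPM, and the other 3 lay at 1603 to 1725 CPM and did not differ as neighbours beyond counting error. S_PXT1_K118R was 1.496-fold above WT_K118R (1.33 to 1.68), and S_PXT1 was 1.23-fold above PMSCV (1.09 to 1.40). PUM2 and PABPC4 were higher in both S_PXT1 libraries than in the other 3, as were 24.6% of the 1547 genes, so 2 of 8 members is near the background.

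The ZFP36 family, which directs AU-rich mRNAs to decay, did not move together. ZFP36L2 (chromosome 2, 43222402 to 43226609) had 66, 65, 63, 184 and 82 counts. WT alone was high, at 538 CPM against 235 to 253 CPM in the other 4 libraries, which did not differ as neighbours beyond counting error. WT was 2.29-fold above PMSCV (1.72 to 3.09), and WT_K118R was 2.21-fold below WT (1.70 to 2.91). Both ratios rest on the single WT library.

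ZFP36L1 (chromosome 14, 68787660 to 68796253) had 55, 21, 29, 31 and 56 counts. PMSCV and WT_K118R were highest at 196 and 166 CPM, and S_PXT1_K118R, WT and S_PXT1 were at 114, 90.7 and 81.9 CPM. No neighbours in this order differed beyond counting error, and WT_K118R was at 1.46 times S_PXT1_K118R (0.914 to 2.36). S_PXT1 was 2.39-fold (1.42 to 4.16) and WT 2.16-fold (1.36 to 3.47) below PMSCV, the shared reference of both. WT_K118R was at 1.83 times WT (1.16 to 2.94), within 2-fold. WT_K118R did not differ from PMSCV beyond counting error for ZFP36L1, at 0.849 times (0.574 to 1.25), or for ZFP36L2, at 1.04 times (0.740 to 1.45). For both genes the ratio of WT_K118R to WT rests on the single WT library. ZFP36 itself (chromosome 19, 39406813 to 39409412) had 3, 0, 0, 11 and 5 counts, and the 2 values of 0 were set to a floor of 3 counts, or 11.7 and 11.8 CPM; the exact 95% intervals reach 14.4 and 14.5 CPM. Against that floor S_PXT1 was at least 2.75-fold below WT for ZFP36, and the exact interval of the ratio, which also holds the error of the 11 counts, begins at 1.88-fold. No other of the 6 comparisons had an interval that excluded 1. The tissue-marker sums are low in the same 2 libraries as ZFP36, and their part in its values was not tested.

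**Figure D4:**
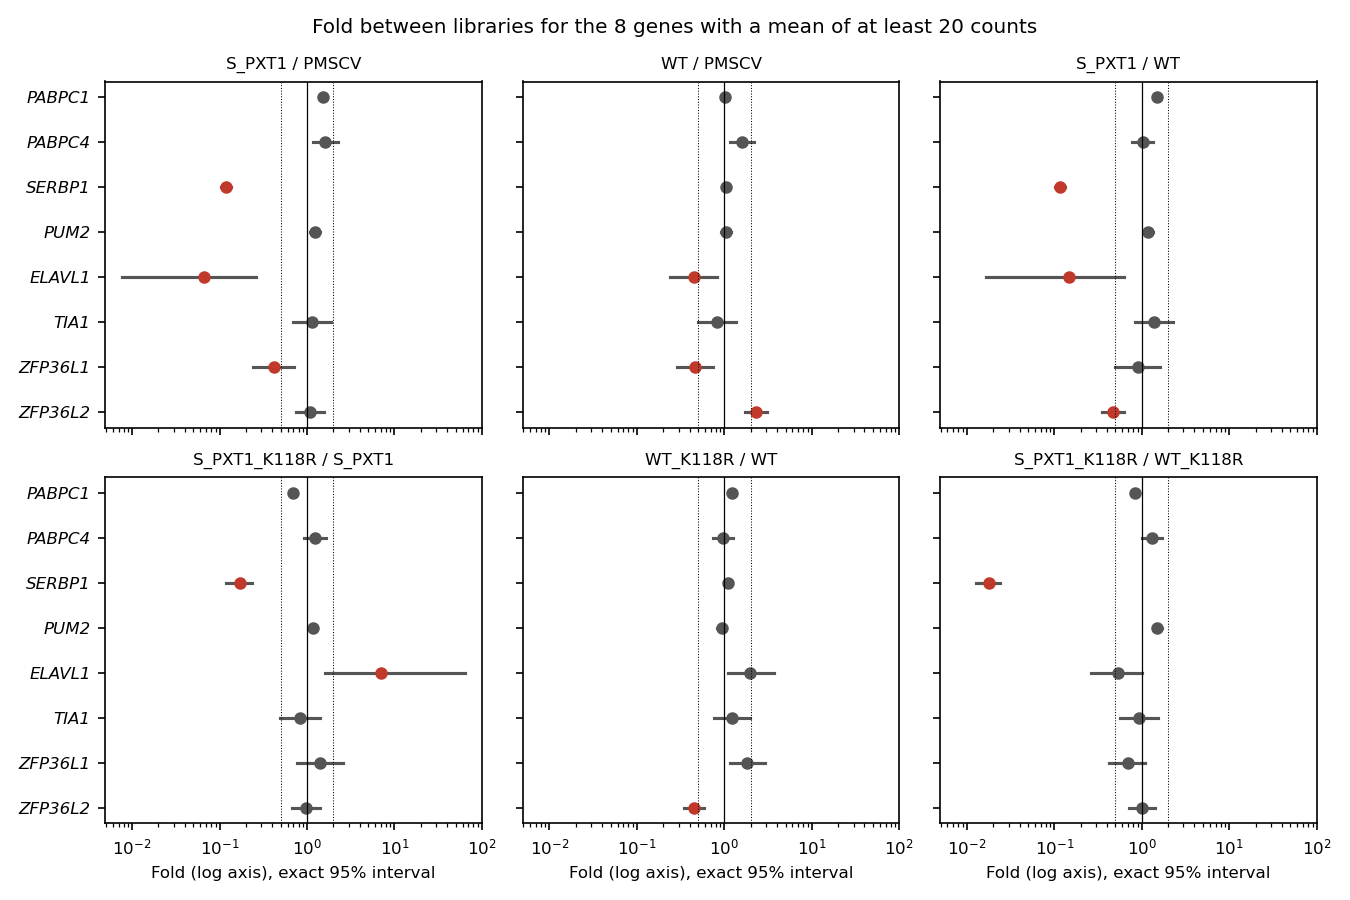
Ratio between libraries for the 8 genes that averaged 20 counts or more, 1 panel for each of 6 comparisons, on a log axis with exact 95% intervals for counting error; red points are past 2-fold, and dotted lines mark 2-fold. SERBP1 is past 2-fold in 4 panels, ELAVL1 in 4, ZFP36L2 in 3, ZFP36L1 in 2 and the other 4 genes in none.

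Of the 9 genes, 8 averaged at least 20 counts and entered the count of differences of at least 2-fold, and ZFP36 did not. ELAVL1 entered only narrowly, at a mean of 20.4 counts, through its 33 and 35 counts in PMSCV and WT_K118R. It had 2, 14 and 18 counts in S_PXT1, S_PXT1_K118R and WT, so its entries below rest on few counts. In S_PXT1 over PMSCV 3 of 8 were lower (SERBP1, ELAVL1 and ZFP36L1) and 0 higher, where of all 1547 genes 11.3% were past 2-fold, 7.82% lower and 3.49% higher. In WT over PMSCV 1 was higher (ZFP36L2) and 2 were lower (ELAVL1 and ZFP36L1), where 5.37% of genes were past 2-fold, 2.71% higher and 2.65% lower. In S_PXT1 over WT 3 were lower (SERBP1, ELAVL1 and ZFP36L2) and 0 higher, against 10.1% of genes, 7.05% lower and 3.04% higher. These comparisons share libraries in pairs, so their counts are not separate evidence. In S_PXT1_K118R over S_PXT1 1 was higher (ELAVL1) and 1 lower (SERBP1), against 8.14% of genes, 3.36% higher and 4.78% lower. In WT_K118R over WT 1 was lower (ZFP36L2), against 5.30% of genes, 2.84% lower and 2.46% higher. In S_PXT1_K118R over WT_K118R 1 was lower (SERBP1), against 10.6% of genes, 7.82% lower and 2.78% higher. With 8 members, a count of 1 is near these backgrounds.

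The median log2 ratio of the 8 members lay closest to that of all genes in S_PXT1 over PMSCV and WT over PMSCV. The gap was widest in the 2 comparisons with WT_K118R. The median of the members was 0.14 beside 0.20 in S_PXT1 over PMSCV, 0.05 beside 0.11 in WT over PMSCV and -0.06 beside 0.07 in S_PXT1 over WT. In S_PXT1_K118R over S_PXT1 it was 0.10 beside -0.02, in WT_K118R over WT 0.22 beside 0.00, and in S_PXT1_K118R over WT_K118R -0.18 beside 0.04.

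The machinery these proteins work with was looked at through 9 lists. Of the 15 poly(A)-binding genes and partners 9 entered, and 0 were past 2-fold in any of the 6 comparisons, where 5.30% to 11.3% of all genes were, so that 0 of 9 is near the background. Of the 21 decapping and 5′ decay genes 5 entered (XRN1, XRN2, DDX6, PATL1 and LSM14A), also with 0 past 2-fold.

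Of the 21 deadenylation genes 12 entered, and CNOT9, a CCR4-NOT subunit that binds silencing adaptors, was past 2-fold in both K118R comparisons, which share no library. CNOT9 had 48, 42, 108, 48 and 114 counts. Both K118R libraries were high, at 2.59 times S_PXT1 (1.80 to 3.80) and 2.41 times WT (1.70 to 3.45). The other 11 were within 2-fold in all 6 comparisons. Of all genes 8.14% and 5.30% were past 2-fold in the 2 K118R comparisons, 3.36% and 2.46% higher. Thus 1 of 12 is near the background, and the share of genes past 2-fold in both was not computed. CNOT1, the scaffold of the complex, had 743 to 1107 counts.

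Of the 16 nonsense-mediated decay genes 4 entered. UPF2, a core factor of that pathway, was 2.56-fold higher in S_PXT1 than in PMSCV (1.74 to 3.82), with 39 counts in PMSCV and 65 to 91 in the other 4 libraries. Of the 12 stress granule genes 10 entered, and G3BP2, a granule scaffold, had 109 counts in PMSCV against 200 to 252 elsewhere and was 2.11-fold higher in S_PXT1 than in PMSCV (1.67 to 2.69), and within 2-fold when scaled by total counts or in FPKM. PMSCV was the low library for both genes. The other members of these lists were within 2-fold. In S_PXT1 over PMSCV 11.3% of all genes were past 2-fold, 3.49% higher. A count of 1 among 4 or 10 genes is too small to set apart from these shares.

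Of the 41 genes that bind 3′ untranslated regions 26 entered, and apart from the members described above AGO1, an Argonaute, was the 1 gene past 2-fold. AGO1 had 34, 20, 41, 58 and 77 counts, and S_PXT1 was 2.18-fold below WT (1.29 to 3.82) and S_PXT1_K118R at 2.07 times S_PXT1 (1.18 to 3.72). In FPKM the AGO1 values were 4.79 in S_PXT1, 10.1 in S_PXT1_K118R and 10.2 in WT, so both ratios stayed past 2-fold. With 1 FPKM added to each value, as the FPKM calls were made, both fell within 2-fold. Counting the members, 4 of the 26 were lower and 0 higher in S_PXT1 over WT. Of all genes 10.1% were past 2-fold there, 7.05% lower and 3.04% higher. In S_PXT1_K118R over S_PXT1 2 of the 26 were higher and 1 lower, where 8.14% of all genes were past 2-fold, 3.36% higher and 4.78% lower. The most deeply counted genes of this list, YBX1, PCBP1, PCBP2, HNRNPD and SYNCRIP, were within 2-fold in all 6 comparisons. In the list of SERBP1 partners at idle ribosomes EEF2, the elongation factor, had 281, 172, 240, 349 and 290 counts, and RACK1 had 36 to 60 counts. Neither was past 2-fold, and HABP4, the paralog of SERBP1, had 0 to 4 counts.

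Some lists were too sparse to describe gene by gene. None of the 19 exosome and 3′ decay genes reached a mean of 20 counts. Their sums were 71, 28, 20, 71 and 58 counts, so that S_PXT1 was at 0.432 times PMSCV (0.269 to 0.678). These sums are low in the same 2 libraries that detect fewer genes and hold fewer tissue-marker counts, and the part of either in them was not tested. Of 30 mRNAs with AU-rich elements 3 entered (VEGFA, JUNB and BCL2). VEGFA, a growth factor for blood vessels, had 37, 13, 14, 29 and 47 counts, and was 2.60-fold lower in S_PXT1 than in PMSCV (1.35 to 5.32). It was 2.53-fold lower in S_PXT1_K118R than in WT_K118R (1.37 to 4.98). In these comparisons 11.3% and 10.6% of all genes that entered were past 2-fold, 7.82% lower in each. VEGFA was low in the same 2 libraries as the tissue-marker sums, and their part in its values was not tested.

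Patterns over the 5 libraries were compared among the 505 genes that averaged 100 counts or more, by the Euclidean distance between log2 levels centred on each gene's mean. Among the 3 nearest genes to PABPC1 were PPP2R5E and CTCF, at distances of 0.21 and 0.23. Among the 3 nearest to PUM2 were WAPL and MBNL1, at 0.09 and 0.13, and the 3 nearest to PABPC4 were USP34, EIF4G2 and HNRNPA3, at 0.17, 0.26 and 0.29. SERBP1 had no close neighbour. YTHDF2, HSP90AA1 and MT-ND5 were nearest, at 2.73, 2.86 and 3.73. YTHDF2 had 137, 165, 5, 218 and 332 counts, so it shared the low value in S_PXT1_K118R but not that in S_PXT1.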

How the data were processed

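Per the file headers, the authors deposited 1 table of human gene models with a raw count and an FPKM value (a count relative to gene length and depth) for each gene in each of 5 libraries. FastQC, HISAT2 2.2.1 and cutadapt 1.9 were used, per the submitters' processing notes. No source used here names the counting tool, its strand setting, the build or the annotation. The table had 0 value columns that belong to no library. The total counts ran from 250409 to 351693, so that 1 count was 2.92 to 3.93 CPM.

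TMM factors were computed in edgeR 4.0.16 under R 4.3.3. Intervals are exact at 95% (Poisson for a level, conditional binomial for the ratio of 2 counts; scipy 1.17.1 under Python 3.11.15) and cover counting error only. Since no molecular identifiers are mentioned, reads may not be independent molecules, and nothing states that the libraries came from separate cultures. A gene entered at a mean of at least 20 counts and was past 2-fold when log2(CPM + 1) differed by at least 1; folds were taken on scaled counts without the pseudocount. A fold against 0 counts used a floor of 3 counts in that library. Between any 2 libraries, the ratio of FPKM to count changed by 1 shared factor, within 0.01 on the log2 scale, for at least 99.92% of genes with 20 counts in both. Fold and interval code was tested on simulated data. The alternatives were DESeq2 1.42.0 size factors, total counts, FPKM, pseudocounts of 0.1 and 5 CPM, other filters and thresholds, and summed gene models. Calls in FPKM added 1 FPKM to each value.

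Named were the 9 members with their paralogs and pseudogenes, up to 4 list genes past 2-fold per list and comparison, and the 3 nearest genes in pattern; some of these are not reported here. List genes within 2-fold, and PABPN1, were named after their values were seen. Members and lists were chosen with earlier results of these data known.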

Additional observations from a re-analysis of the deposited data

Results flagged for a closer look

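For PABPC1 and SERBP1 the K118R libraries moved in opposite directions in the 2 backgrounds, each beyond counting error. PABPC1 was at 0.691 times S_PXT1 in S_PXT1_K118R and at 1.23 times WT in WT_K118R. SERBP1 was at 0.171 times S_PXT1 in S_PXT1_K118R and at 1.11 times WT in WT_K118R. With its pseudogenes added the first of these was 0.602, so its size is uncertain. Each ratio compares 1 library with 1 library, and the difference between the backgrounds was not tested.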

How the results depend on the processing

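No paired analysis was possible because each group held 1 library. Of 72 counts of members past 2-fold under an alternative, 56 stayed within 1.5 times the reported count. Scaling by DESeq2 size factors or total counts, FPKM and both pseudocounts changed no such count by more. With a mean of at least 100 counts, 4 members entered and 0 members were past 2-fold in WT_K118R over WT and 0 in WT over PMSCV. Of all 505 genes at that filter 2.18% and 1.39% were. The member count was then 1 in each of S_PXT1_K118R over S_PXT1, S_PXT1 over PMSCV and S_PXT1 over WT, where 3.17%, 3.76% and 3.37% of those genes were past 2-fold. At 1.5-fold the member counts were 5 in S_PXT1 over PMSCV, 3 in WT_K118R over WT and 2 in S_PXT1_K118R over WT_K118R. At 3-fold they were 0 in WT over PMSCV and 0 in WT_K118R over WT. The share of all genes was not computed at 1.5-fold or 3-fold. With no filter or at a mean of 1 CPM the member counts were 2 in WT_K118R over WT and 2 in S_PXT1_K118R over WT_K118R, since ZFP36 then entered. At a mean of 1 CPM 40.1% and 53.0% of all genes were past 2-fold in these comparisons. That filter admits 13352 genes, and 1 count was already 2.92 to 3.93 CPM, so these shares include genes of very few counts. Since 8 of the 9 members averaged at least 20 counts, 2 of 9 cannot be read against these shares. With overlapping models summed the member count was 2 in WT_K118R over WT, and with pseudogenes added 1 in S_PXT1_K118R over S_PXT1. Of 250 folds of single members, 235 stayed inside their interval and 0 that were past 2-fold changed direction. PABPC1 in S_PXT1 over PMSCV ran from 1.42 (total counts, FPKM) to 1.58 (DESeq2). In WT over PMSCV, total counts put PABPC1 at 0.947 and SERBP1 at 0.958, below PMSCV, and moved the median log2 ratio of all genes from 0.11 to 0.00. Of 324 counts of list genes past 2-fold, 280 stayed within 1.5 times. Total counts or FPKM ended the call of G3BP2 given above. Adding 1 FPKM to each FPKM value ended both calls of AGO1 and that of VEGFA in S_PXT1_K118R over WT_K118R. Neither DESeq2 size factors nor total counts ended these. Depth limits TIA1, ELAVL1 and ZFP36 most.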

Other observations

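Other copies of these genes had low counts. PABPC3, an intronless relative of PABPC1, had 9 to 12 counts in each library, and PABPC1P4 had 45, 46, 54, 71 and 69 counts in the order of libraries used above, while PABPC1 itself was highest in S_PXT1. SERBP1P1 had 7 or 8 counts in each library. SERBP1P6 had 5 counts in PMSCV and WT_K118R and 0 in the other 3.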
